A study of Drosophila melanogaster with 12 samples.

Results

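The genes described here are EcR, Hr39, Eip75B and ftz-f1, which encode nuclear receptors linked to the steroid hormone ecdysone, and tramtrack (ttk), which encodes a zinc finger repressor. They were taken by gene name from a table of 5421 Drosophila melanogaster records, and each of the 5 genes has 1 record. RNA was sequenced in 12 libraries that cover 3 stages in 2 genotypes, with 2 replicates in each of the 6 groups. The mutant groups, called wisp here, carry the wispKG5287 allele, which the labels describe as null and as a knockout of wispy, the gene of a cytoplasmic poly(A) polymerase. The control groups, called WT, are w1118 flies. Immature oocytes came from stages 9 to 10 of oogenesis and mature oocytes from stage 14, both taken by hand dissection from females aged 3 to 4 days. Activated eggs were unfertilized, were collected at 0 to 1 h and 25 °C, and were laid by virgin females paired with males made sterile by a tud1 mother. The labels name no transgene or driver and call the replicates biological. How many females each library holds is not stated in the sources used here.

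Ecdysone acts through a dimer of the ecdysone receptor, EcR, and its partner Ultraspiracle, which binds DNA and switches on a cascade of other transcription factors, several of them nuclear receptors. In the fly ovary this pathway is known for its part in the survival of egg chambers at mid-oogenesis, in the follicle cells around the oocyte and in ovulation. Some mRNAs of the cascade are also loaded into the egg, where ftz-f1 product works with the segmentation protein Fushi tarazu in the embryo. Tramtrack represses transcription through a BTB domain and zinc fingers, was found as a repressor of the fushi tarazu gene, and in late follicle cells acts beside Notch and ecdysone signals.

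Values are the authors' normalised read counts, which are not per length, and the depth of sequencing behind them is unknown. Library sums ran between 11081267 and 14089899, and no value in any library was below 100.07, so genes under that level are not seen here. Transcripts of wisp, the mutated gene, were low in every library labelled wisp, at 189 to 718, against 3623 to 17226 in WT libraries. The replicates of immature oocytes were far apart. Replicates differed at least 2-fold for 932 records in wisp immature oocytes and 1119 in WT immature oocytes, against 619 and 473 in wisp and WT activated eggs and 7 and 9 in wisp and WT mature oocytes. All 20 nurse cell and germline markers looked for were in the table. Of 40 follicle cell markers 1 was listed, of 13 muscle markers 1 and of 11 fat body and haemocyte markers 1. No listed gene is under 100.07 in any library, so a marker that is low at 1 stage only would be missing too. These counts therefore do not show which cells the libraries of a given group hold.

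Positions of the 5 genes are in the dm6 build. EcR spans 6087873 to 6169087 on the minus strand of 2R and Hr39 spans 21237250 to 21259675 on the plus strand of 2L. On 3L, Eip75B spans 17950953 to 18064696 and ftz-f1 spans 18750607 to 18801309, both on the minus strand. The ttk gene spans 31713867 to 31735392 on the plus strand of 3R. The annotation gives 6 transcripts for EcR, 4 for Hr39, 7 for Eip75B, 4 for ftz-f1 and 8 for ttk, and a single record per gene cannot tell them apart. The different EcR and Eip75B receptor isoforms and the alternative Tramtrack proteins are therefore summed. Other annotated genes overlap EcR, Eip75B, ftz-f1 and Hr39, among them CG14589 inside EcR and CG32192 and CG42393 inside Eip75B, and none of these has a record of its own here. The library kit named in the labels does not mark strand, so reads from such neighbours could not be told from reads of the receptor where their exons meet.

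Every record listed has at least 100.07 in each library, so the presence of the 5 genes at each stage and in both genotypes is set by the listing. Averaged over the 12 libraries, the normalised read count was 2338 for ttk and 1891 for ftz-f1, above 79.2% and 72.6% of the records. The averages of Hr39 (986), EcR (975) and Eip75B (796) lay above 47.6%, 47.3% and 39.0% of the records. Per kilobase of the longest annotated transcript the order was ttk (512 ± 198), ftz-f1 (312 ± 161), Hr39 (204 ± 77.2), EcR (116 ± 55.1) and Eip75B (96.6 ± 43.5, SD over 12 libraries). Per length, ttk was above ftz-f1 in 12 of 12 libraries, ftz-f1 above Hr39 in 11, Hr39 above EcR in 12 and EcR above Eip75B in 9. With the shortest annotated transcript as the length the order was the same, and ttk was above ftz-f1 in 10 libraries. The SDs of neighbours in this order overlap, and which isoforms the oocytes hold is not known from these values.

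**Figure D1:**
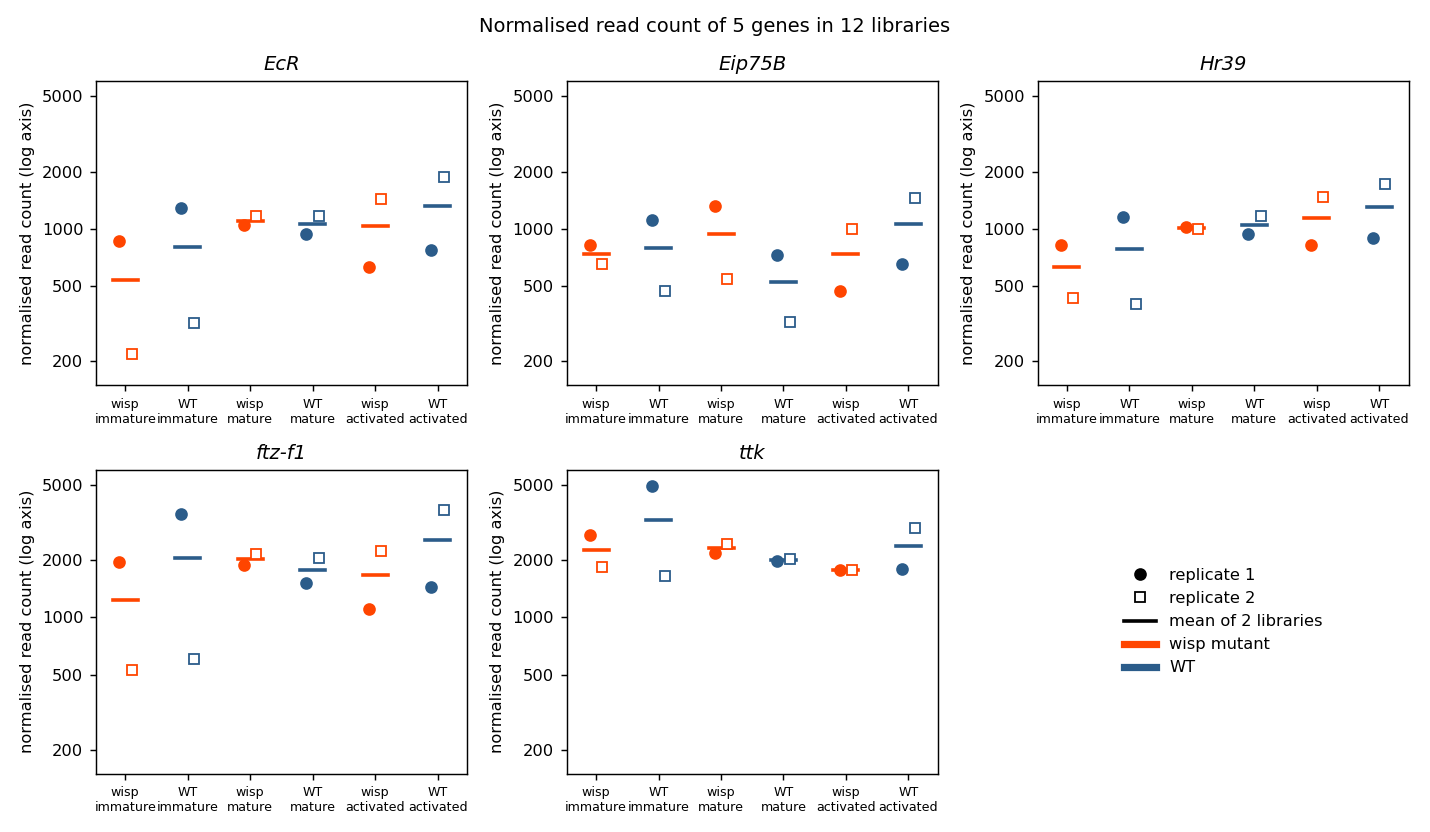
Normalised read count (log axis) of EcR, Eip75B, Hr39, ftz-f1 and ttk in 12 libraries, with wisp left of WT at each stage. Circles are replicate 1, open squares replicate 2 and bars the mean of 2 libraries. In immature oocytes the circles lie above the squares for all 5 genes, and in mature oocytes the symbols lie close together for all but Eip75B.

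EcR is the receptor that binds the hormone. Its normalised read count was 859.6 and 219 in replicates 1 and 2 of wisp immature oocytes, against 1286 and 317 in WT immature oocytes. Mature oocytes had 1042 and 1167 in wisp, against 941 and 1167 in WT. Activated eggs had 626 and 1440 in wisp, against 773 and 1866 in WT. EcR was thus even across the 4 mature libraries, lowest in both second replicates of immature oocytes, and overlapped between genotypes at every stage. In wisp both mature values lay above both immature values, with a log2 fold change of 1.34 (95% interval -0.54 to 3.22, limma, adjusted p = 0.283), and in WT the log2 fold change was 0.71 (-1.17 to 2.59, limma, adjusted p = 0.673) with overlapping groups. Of all records, 32.8% were likewise higher in both mature than in both immature wisp libraries. EcR spanned 8.53-fold over the libraries, the widest range of the 5 genes.

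Eip75B, a haem-binding receptor named for its induction by ecdysone, is known to block the receptor Hr3. It had 823 and 648 normalised read counts in wisp immature oocytes, against 1111 and 471 in WT immature oocytes. Mature oocytes had 1323 and 544 in wisp, against 728 and 321 in WT. Activated eggs had 470.1 and 1002 in wisp, against 648 and 1460 in WT. Eip75B differed from the other 4 genes in that its mature replicates did not lie close together, and its wisp and WT values overlapped at each stage. The mean in mature oocytes was 933 ± 551 in wisp and 524 ± 288 in WT (SD, n = 2 each), a log2 fold change of 0.81 (95% interval -0.72 to 2.33, limma, adjusted p = 0.604). The difference was 0.86 between the first replicates and 0.76 between the second replicates on the log2 scale. In a fit that pairs same-numbered libraries within each stage (a replicate block), Eip75B passed here (limma, adjusted p = 0.00312), as did 24.0% of all records. No label gives a ground for that pairing. With no block, the log2 fold change was 0.17 without wisp mature replicate 1 and 1.45 without wisp mature replicate 2.

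Hr39 and ftz-f1 belong to the same receptor subfamily and are not known to bind ecdysone. Hr39 is known for its part in the secretory glands of the female reproductive tract, and ftz-f1 as a factor that makes tissues competent to answer the hormone. Hr39 had 820.4 and 433 normalised read counts in wisp immature oocytes, against 1158 and 403 in WT immature oocytes. Mature oocytes had 1026 and 999 in wisp, against 934 and 1168 in WT. Activated eggs had 824 and 1464 in wisp, against 889 and 1717 in WT. The spread of Hr39 over the libraries was 4.26-fold, and its 2 genotypes overlapped at each stage. Both mature wisp values were above both immature wisp values, with a log2 fold change of 0.76 (95% interval -0.50 to 2.03, limma, adjusted p = 0.347). With libraries left out this value ran from 0.30 to 1.22, the lowest without wisp immature replicate 2 and the highest without wisp immature replicate 1. As with EcR, 32.8% of all records were likewise higher in both mature wisp libraries.

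The ftz-f1 transcript had 1956 and 527 normalised read counts in wisp immature oocytes, against 3521 and 602 in WT immature oocytes. Mature oocytes had 1898 and 2169 in wisp, against 1522 and 2045 in WT. Activated eggs had 1109 and 2238 in wisp, against 1442 and 3669 in WT. As with EcR, the values of ftz-f1 were lowest in the second replicates of immature oocytes and overlapped between genotypes. Its level was 1.55 to 2.74 times that of EcR in each of the 12 libraries, a ratio of values that are not per length, while both genes spanned 6.96-fold or more.

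The repressor gene ttk had 2705 and 1846 normalised read counts in wisp immature oocytes, against 4910 and 1649 in WT immature oocytes. Mature oocytes had 2181 and 2444 in wisp, against 1987 and 2028 in WT. Activated eggs had 1770 and 1788 in wisp, against 1794 and 2952 in WT. The span of ttk over the libraries was 2.98-fold, the narrowest of the 5. Its wisp values lay above WT in mature oocytes (log2 fold change 0.20, 95% interval -0.86 to 1.27, limma, adjusted p = 0.933) and below WT in activated eggs (-0.37, -1.44 to 0.70, limma, adjusted p = 0.617), without overlap in either. Of all records, 30.2% were likewise higher in wisp without overlap in mature oocytes and 38.9% lower in activated eggs. In activated eggs the first replicates of ttk differed by only 0.02 on the log2 scale and the second by 0.72.

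Maturation, activation and the loss of wispy were each tested over all records, and 0 of the 5 genes passed an adjusted p of 0.05 (limma, with no replicate block) in any of 9 comparisons. The smallest unadjusted p was 0.139, for EcR in the comparison of mature with immature wisp oocytes. Of all records, 13.1% passed for mature against immature oocytes in wisp and 0.0% in WT, where 522 had an unadjusted p under 0.05. For activated eggs against mature oocytes 0.0184% passed in wisp and 0.0553% in WT. For wisp against WT, 0.111% passed in immature oocytes, 10.1% in mature oocytes and 25.0% in activated eggs. The difference between the genotypes in maturation passed for 1.03% of records, and that in activation for 0.0%, with 444 at an unadjusted p under 0.05. These shares rest on single libraries. Without WT activated replicate 2 the records passing for wisp against WT in activated eggs numbered 203 in place of 1355, and without any 1 of the 4 mature libraries those in mature oocytes numbered 109 to 195 in place of 545.

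The intervals leave room for sizeable changes of the 5 genes in either direction. The standard error of a log2 fold change between 2 groups was 0.89 for ftz-f1, 0.82 for EcR, 0.67 for Eip75B, 0.55 for Hr39 and 0.47 for ttk, against a median of 0.25 over all records. Only 3.89% of records had a larger one than ftz-f1 and 17.1% a larger one than ttk. At this spread the 95% interval of EcR in wisp against WT mature oocytes ran from 0.286-fold to 3.87-fold around an estimate of 1.05-fold, and that of ftz-f1 from 0.28-fold to 4.73-fold around 1.15-fold. The standard error of a gene pools the replicate spread of all 6 groups. EcR replicates of mature oocytes differed by 0.16 in wisp and 0.31 in WT on the log2 scale. Those of immature oocytes differed by 1.97 and 2.02, and those of activated eggs by 1.2 and 1.27. The intervals for mature oocytes therefore carry the spread of the other stages too. That these genes did not pass in this fit does not show that the genotypes were alike. With a replicate block within each stage Eip75B passed for wisp against WT in mature oocytes (limma, adjusted p = 0.00312). In activated eggs Eip75B (limma, adjusted p = 0.0309) and ftz-f1 (limma, adjusted p = 0.0266) passed with it, but neither with the length trend also removed. Of all records 24.0% then passed in mature oocytes and 53.7% in activated eggs.

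**Figure D2:**
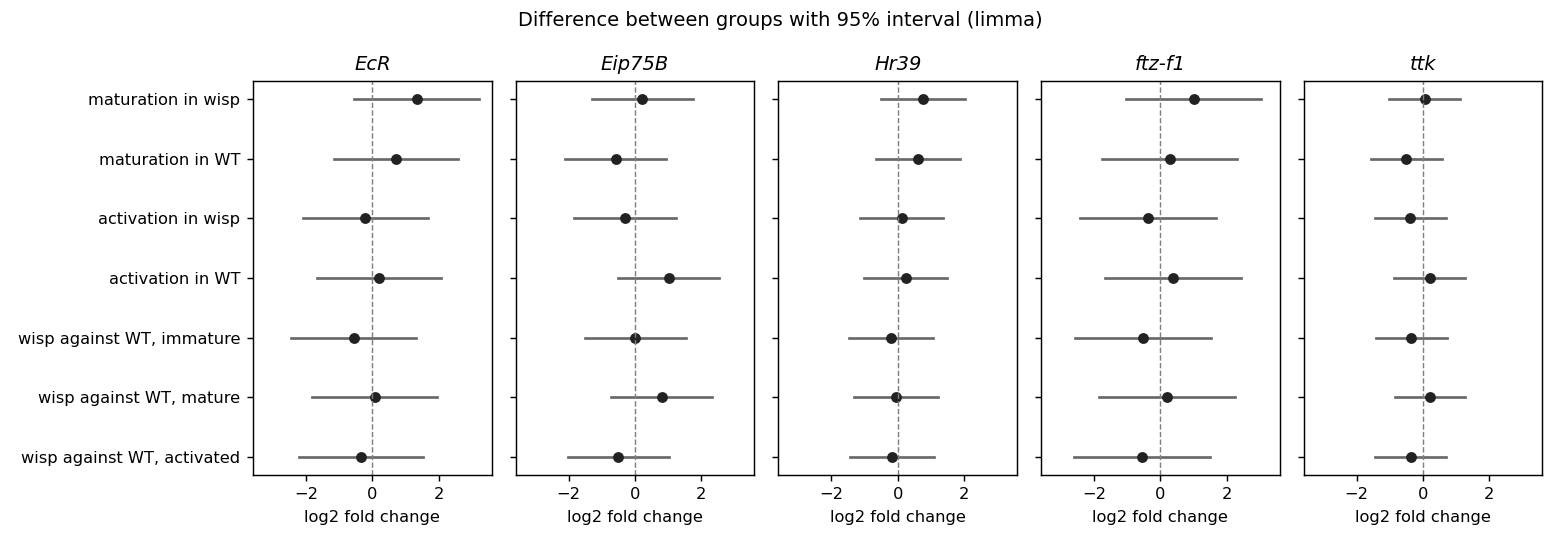
Log2 fold change of each gene with its 95% interval (limma) in 7 comparisons. Maturation is mature over immature oocytes, activation is activated eggs over mature oocytes. Each interval crosses 0, and those of ttk are the narrowest.

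For maturation, 2 of the 5 genes, EcR and Hr39, had higher values in both mature than in both immature wisp libraries, where 32.8% of all records did so. In WT the groups overlapped for all 5, and 43.3% of records had no overlap. Replicate 1 of both immature groups was then left out, a choice made after the data were seen. The log2 fold change in wisp was 2.33 for EcR and 1.94 for ftz-f1. Without replicate 2 of both immature groups the values were 0.36 for EcR and 0.05 for ftz-f1. The size of the estimates for EcR and ftz-f1 thus turned on which immature libraries were used. In WT, EcR had 1.72 without WT immature replicate 1 and -0.30 without WT immature replicate 2. Each of these fits leaves 1 library in an immature group, so only effect sizes are given. Eip75B had a WT log2 fold change of -0.58 (95% interval -2.11 to 0.94, limma, adjusted p = 0.672) and ttk of -0.50 (-1.57 to 0.56, limma, adjusted p = 0.623). In pooled oocytes, a different make-up of the collected material and a different amount of RNA per oocyte cannot be told apart.

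For egg activation, the step from mature oocyte to laid egg in which maternal mRNAs are re-used, the log2 fold change of Eip75B was -0.30 in wisp (95% interval -1.83 to 1.22, limma, adjusted p = 0.954) and 1.01 in WT (-0.52 to 2.53, limma, adjusted p = 0.9998). The test of the difference between these gave -1.31 (-3.47 to 0.85, limma, adjusted p = 0.613). With libraries left out that difference ran from -1.95 without wisp mature replicate 2 to -0.67 without wisp mature replicate 1. The WT value was 0.42 without WT activated replicate 2 and 1.59 without WT activated replicate 1. In WT the first replicates of Eip75B differed by -0.17 on the log2 scale and the second by 2.18. The only member whose groups did not overlap was ttk, with both activated wisp values below both mature wisp values (log2 fold change -0.38, -1.44 to 0.69, limma, adjusted p = 0.899), as had 24.9% of all records. The estimates of EcR, Hr39 and ftz-f1 lay between -0.37 and 0.38 in both genotypes.

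For the loss of wispy, the immature estimates were -0.56 for EcR (95% interval -2.44 to 1.32), -0.52 for ftz-f1 (-2.56 to 1.52), -0.35 for ttk (-1.41 to 0.72), -0.20 for Hr39 (-1.46 to 1.07) and 0.01 for Eip75B (-1.51 to 1.54), and the groups overlapped for all 5. Between the first replicates alone wisp was below WT for all 5 genes, at -0.86 for ttk and -0.85 for ftz-f1 on the log2 scale, and between the second replicates only EcR (-0.53) and ftz-f1 (-0.19) were lower. The genotype difference in maturation ran between 0.15 for Hr39 and 0.80 for Eip75B (95% interval -1.36 to 2.95), and none of the 5 passed. The Eip75B value ran from 0.16 without wisp mature replicate 1 to 1.44 without wisp mature replicate 2.

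Of the 5 genes 1, ttk, had non-overlapping groups in mature oocytes, higher in wisp as for 30.2% of records. In activated eggs it was lower in wisp without overlap, as for 38.9% of records. The activated estimates of all 5 genes were below 0, at -0.55 for ftz-f1, -0.50 for Eip75B, -0.37 for ttk, -0.34 for EcR and -0.17 for Hr39. Over all records the median was -0.162, and with median-of-ratios scaling, which moved that median to 0.0446, Hr39 stood at 0.04. Transcript length moved with this comparison. The median log2 fold change was 0.475 for the eighth of records with the shortest transcripts and -0.742 for the eighth with the longest. EcR, Eip75B and ftz-f1 are in that longest eighth. Hr39 and ttk are in the eighth of 3638 to 5090 nt, where the median was -0.536. With the length trend removed the estimates were 0.28 for EcR, 0.25 for Hr39, 0.11 for Eip75B, 0.02 for ttk and -0.04 for ftz-f1, none of which passed.

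In immature oocytes and activated eggs, but not in mature oocytes, replicates of 1 group differed in the same direction for all 5 genes. In immature oocytes replicate 1 was higher than replicate 2 for each of them in both genotypes, as for 37.0% of all records. A difference of at least 2-fold in both genotypes was seen for EcR and ftz-f1, and for 13.7% of all records. The difference for ftz-f1 was 3.71-fold in wisp and 5.85-fold in WT, and only 5.48% and 2.4% of records had a larger one. That for EcR was 3.93-fold in wisp and 4.06-fold in WT. In wisp immature oocytes the replicates of Hr39, ttk and Eip75B were closer, and 19.1%, 33.3% and 50.4% of records had a larger difference. In activated eggs the order was turned round for all 5 genes, as for 36.6% of records, with replicate 2 of EcR higher 2.3-fold in wisp and 2.42-fold in WT, that of ftz-f1 2.02-fold and 2.54-fold, and that of Eip75B 2.13-fold and 2.25-fold. The ttk replicates were only 1.01-fold apart in wisp activated eggs and 1.65-fold apart in WT activated eggs.

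The follicle cell gene sn, the 1 marker of that list in the table, went the same way as EcR. Its normalised read count was 1959 and 306 in wisp immature oocytes against 2270 and 402 in WT, and 1422 and 4831 in wisp activated eggs against 1515 and 4199 in WT. Nurse cells express sn too, and the chorion and vitelline membrane genes that define late follicle cells have no value here. The muscle gene Tm1, which the germline also uses, had 1333 and 308 in wisp immature oocytes against 1588 and 369.8 in WT. The summed level of the 20 germline markers was 91579 to 98618 in wisp immature oocytes and 75751 to 99689 in WT, and 93587 to 99141 in wisp activated eggs and 88771 to 116251 in WT. Within that sum, replicate 1 was higher in both immature groups for 11 of the 20 markers and replicate 2 in both activated groups for 13. Sxl, which encodes an RNA-binding protein and was listed with the germline markers, was the 1 marker that differed at least 2-fold in both. It had 2117 and 253 in wisp immature oocytes against 2598 and 335 in WT. In activated eggs it had 1586 and 5404 in wisp against 1251 and 3600 in WT. Sxl went the same way as sn and EcR, and these values do not show which cells its RNA came from. The part of other cells in the replicate differences was not tested.

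In mature oocytes, where replicates agreed best, Eip75B stood apart. Of 5361 protein-coding records, 2 differed at least 2-fold between the replicates of wisp mature oocytes, and 2 did so in WT mature oocytes. They were Hr4 and Eip75B in both genotypes, both nuclear receptor genes, and both higher in replicate 1. Hr4, an ecdysone-induced receptor known for its place in the same cascade as Eip75B and ftz-f1, was singled out after its values were seen. Its normalised read count was 397 and 102 in wisp mature oocytes, against 358 and 148 in WT, and the lowest of these is next to the listing limit of the table. Eip75B differed 2.43-fold between replicates in wisp and 2.26-fold in WT, while the next coding record differed 1.92-fold in wisp (laccase2) and 1.79-fold in WT (CG3523). The remaining records past 2-fold, 5 in wisp and 7 in WT, were noncoding and were higher in replicate 2.

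Relative to EcR, the level of Eip75B in mature oocytes was 1.27 and 0.466 in replicates 1 and 2 of wisp, against 0.774 and 0.275 in WT. In activated eggs the same ratio was even, at 0.751 and 0.696 in wisp against 0.839 and 0.782 in WT. The replicate number is the only label these libraries share across genotypes, and no label ties it to a day, a batch or an animal. With 2 replicates per group this pattern is a description and has no test.

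**Figure D3:**
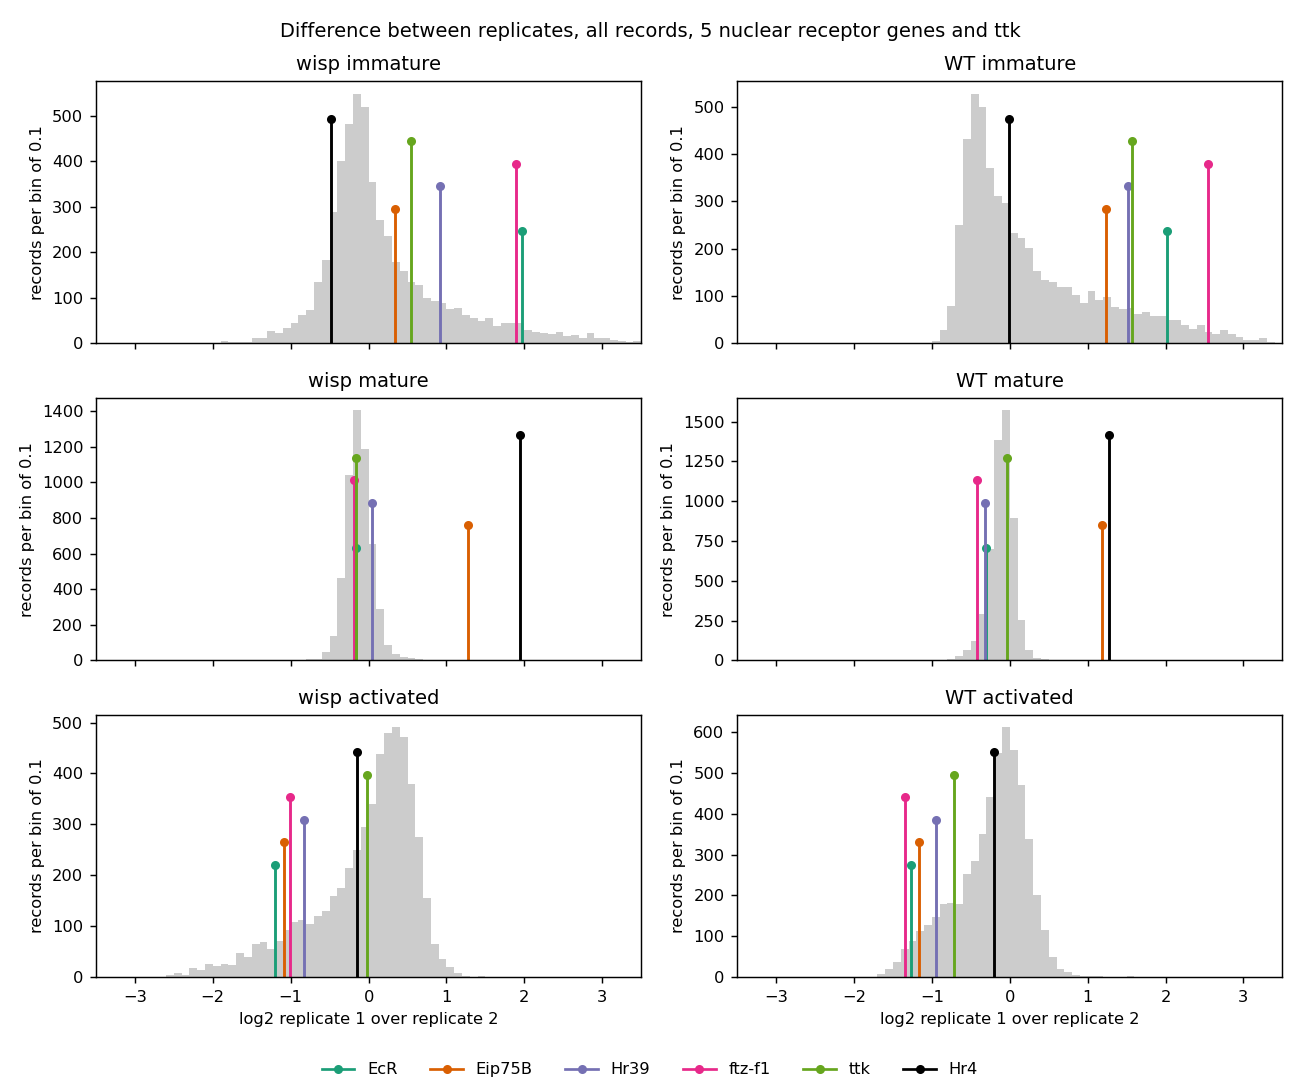
Log2 of replicate 1 over replicate 2 for all records (grey histogram, records per bin of 0.1) and for EcR, Eip75B, Hr39, ftz-f1, ttk and Hr4 (coloured stems, whose heights carry no value), in wisp (left) and WT (right) at each stage. In mature oocytes Hr4 and Eip75B lie far to the right of the histogram in both genotypes, and in activated eggs EcR, Eip75B, Hr39 and ftz-f1 lie left of its peak.

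Likeness over all 12 libraries was measured as the root mean square difference between log2 values, each centred on the gene's own mean. The nearest genes were sought among named genes, without those known only by an annotation number, while the medians are over all records. The profile of ftz-f1 was close to that of EcR at 0.23, and among named genes only CycG (0.19) and Fur1 (0.21) were closer, where the median over records was 0.88. Nearest to EcR were Pak (0.13), msi (0.13) and how (0.14), against a median of 0.90. Hr39 was matched most closely by Naa60 (0.07), smo (0.09) and bur (0.09), against 0.67, and ttk by otu (0.19), pgant5 (0.21) and ewg (0.22), against 0.56. Eip75B had no near match among named genes. Its closest genes, Tsc1 (0.47), ewg (0.47) and Hrb87F (0.48), were farther off than the closest genes of the other 4, and its median was 0.75. The libraries of 1 stage and replicate number share whatever set them apart, so these figures describe the libraries only.

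Among the other nuclear receptor genes, 6 of the 18 symbols looked for had a record, namely usp, Hr4, Hr78, Hr96, Hnf4 and ERR. Ultraspiracle (usp), the dimer partner of EcR, had 1747 and 1122 normalised read counts in wisp immature oocytes, against 2154 and 1115 in WT. It had 2955 and 3307 in wisp mature oocytes, against 2367 and 2531 in WT. In activated eggs it had 2306 and 3474 in wisp, against 2005 and 3418 in WT. The usp values thus followed the replicate pattern of EcR with a smaller spread, and usp passed in none of the 9 comparisons, the closest being mature against immature wisp oocytes (log2 fold change 1.16, limma, adjusted p = 0.0916). Hr78 was the 1 receptor of the 6 that passed any test, in a comparison where 17.7% of all records passed as lower. It fell in wisp activated eggs, with 1008 and 879 against 1442 and 1520 in WT (log2 fold change -0.65, limma, adjusted p = 0.0238). With median-of-ratios or quantile scaling, or without WT activated replicate 1 or 2 or wisp activated replicate 2, it did not pass.

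**Figure D4:**
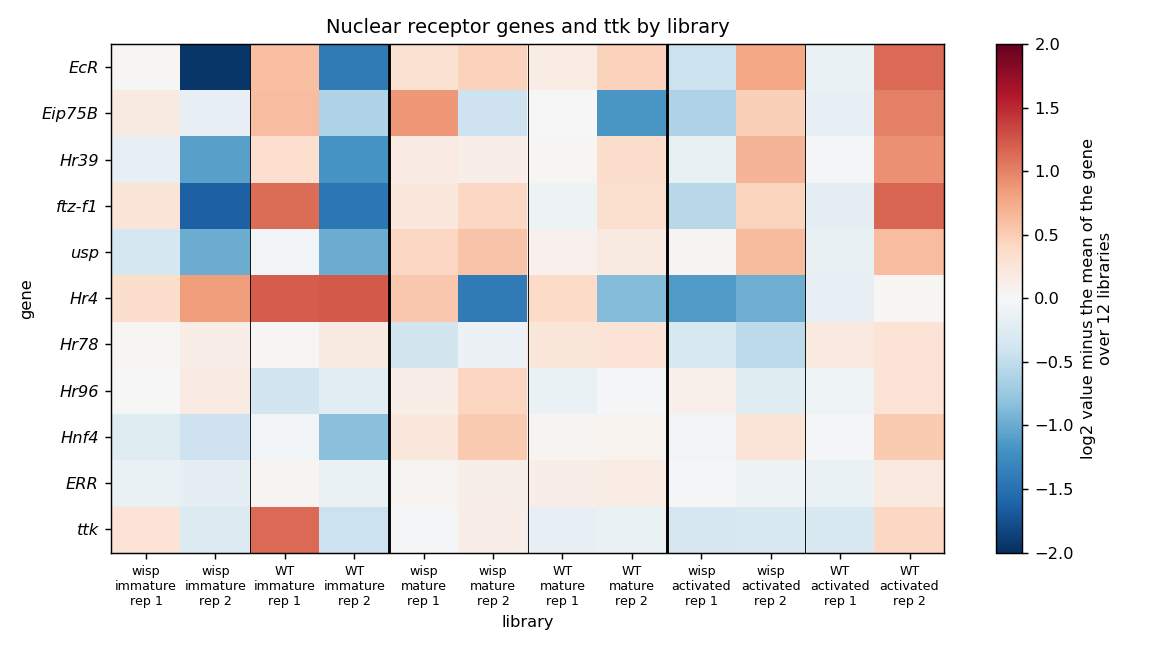
Log2 value of each nuclear receptor gene in the table and of ttk minus the gene's mean over 12 libraries, by library, with wisp before WT within each stage. EcR, Hr39, ftz-f1 and usp are low (blue) in the second replicates of immature oocytes, and Eip75B and Hr4 differ between replicates in mature oocytes of both genotypes.

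Around the receptors, 48 other genes of ecdysone and ttk biology were in the table, from 6 lists of receptors, receptor cofactors, hormone response genes, steroid synthesis and transport genes, ttk partners and BTB zinc finger genes. In activated eggs 9 of the 48 were lower in wisp and 0 higher, or 18.8% lower, near the 17.7% of all records that were lower. The median log2 fold change of the 48 was -0.29, against -0.162 over all records. In mature oocytes 2 of 48 fell in wisp, where 9.37% of records did. For mature against immature oocytes in wisp, 1 rose and 1 fell, where 1.68% of records rose and 11.4% fell. None of the 48 passed in the other 6 comparisons.

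Of 14 cofactors of the ecdysone receptor in the table, 3 fell in wisp activated eggs and 0 rose, where 17.7% of all records fell. Lpt, a subunit of the histone methyltransferase complex that works with EcR, had 482 and 333 normalised read counts in wisp activated eggs, against 1593 and 1604 in WT (log2 fold change -1.99, limma, adjusted p = 0.00601). The methyltransferase of that complex, trr, had 1293 and 934 against 2691 and 2784 in WT (-1.32, limma, adjusted p = 0.0482). Brahma (brm), the ATPase of a chromatin remodelling complex, had 1203 and 1050 against 3143 and 4488 in WT (-1.74, limma, adjusted p = 0.0073). In each of these 3 genes both wisp values were below both WT values, as for 38.9% of all records. The median of the 14 was -0.39 in that comparison, against -0.16 over all records. Another cofactor, rig, which binds several nuclear receptors, rose in mature wisp oocytes, with 4824 and 5404 against 2247 and 2309 in immature wisp oocytes (1.16, limma, adjusted p = 0.0103). That call was lost without either wisp mature library.

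Of 9 genes whose products act with or degrade Tramtrack, 2 fell in wisp activated eggs and 0 rose, where 17.7% of all records fell. Mi-2, a chromatin remodelling ATPase that binds Tramtrack, had 5318 and 3370 normalised read counts in wisp, against 11700 and 11434 in WT (log2 fold change -1.45, limma, adjusted p = 0.0367). It did not pass with median-of-ratios scaling (-1.24, limma, adjusted p = 0.0729) or with the length trend removed (-0.92, limma, adjusted p = 0.205). Its partner MEP-1 had 3655 and 3728 in wisp, against 6415 and 9430 in WT (-1.08, limma, adjusted p = 0.0183). Neither pair of groups overlapped, and 38.9% of all records were likewise lower in wisp without overlap. Among 9 other BTB zinc finger genes, with Trl on both lists, BtbVII fell, with 2586 and 2088 against 3457 and 4806 in WT (-0.81, limma, adjusted p = 0.0364), and the most abundant, lola, had a log2 fold change of -0.42 (limma, adjusted p = 0.667).

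In steroid metabolism, 6 of 23 symbols had a record. Of all records, 9.37% passed as lower in wisp than in WT in mature oocytes and 17.7% in activated eggs. For mature against immature wisp oocytes 11.4% passed as lower. Dare, the adrenodoxin reductase that feeds electrons to the steroid-making P450 enzymes, fell in wisp mature oocytes, with 301 and 314 normalised read counts against 639 and 686 in WT (log2 fold change -1.11, limma, adjusted p = 0.0239). It also fell in wisp activated eggs, with 346 and 246 against 671 and 611 in WT (-1.13, limma, adjusted p = 0.015). CG1319, which RefSeq names Fdx2, a mitochondrial ferredoxin, had 303 and 458 in wisp mature oocytes, against 756 and 786 in WT (-1.05, limma, adjusted p = 0.0281), and was lower than the 757 and 696 of wisp immature oocytes (-0.96, limma, adjusted p = 0.0342, lost without any 1 of the 4 libraries). Both proteins also serve other mitochondrial reactions, and the P450 genes of ecdysone synthesis themselves have no value here. The zinc finger gene mld, which is needed for ecdysone synthesis, had 2225 and 2728 in wisp activated eggs, against 3997 and 6927 in WT (-1.09, limma, adjusted p = 0.0462). The dare and CG1319 calls in mature oocytes were lost without either WT mature library and with median-of-ratios or quantile scaling.

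Of the ecdysone response genes, Eip63E, Eip55E, Eip71CD, crol and Nc had a record and 0 passed in any comparison. The most abundant, the zinc finger gene crol, had 2249 and 2043 normalised read counts in wisp activated eggs, against 2508 and 3605 in WT (log2 fold change -0.49, limma, adjusted p = 0.193). All 9 calls in activated eggs were lost without WT activated replicate 2, when the log2 fold changes ran from -1.99 for Lpt (limma, adjusted p = 0.051) to -0.57 for BtbVII (limma, adjusted p = 0.231). Those of trr (-1.29), Mi-2 (-1.47), dare (-1.20) and Hr78 (-0.61) were then close to their values with every library. Median-of-ratios scaling ended the calls of trr (adjusted p = 0.0933), mld (0.0684), Mi-2, BtbVII (0.0743) and Hr78 (0.0865, limma). Quantile normalisation ended those of trr (adjusted p = 0.172), mld (0.0652), BtbVII (0.159), dare (0.12) and Hr78 (0.249, limma). With the length trend removed those of trr, mld, Mi-2 and BtbVII were lost, and the values of Lpt and brm were then -1.60 (limma, adjusted p = 0.0233) and -1.26 (limma, adjusted p = 0.011).

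**Figure D5:**
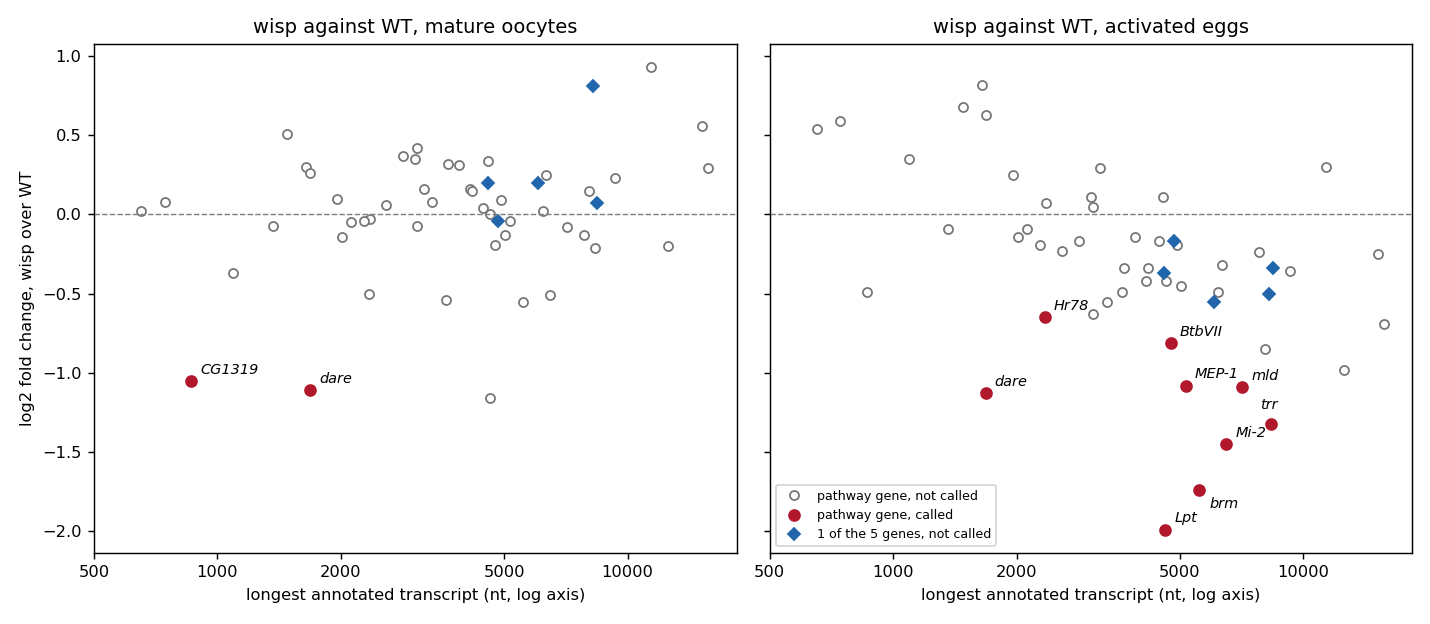
Log2 fold change of wisp over WT in mature oocytes (left) and activated eggs (right) against the length of the longest annotated transcript in nt (log axis), for 48 pathway genes (circles, filled red where they passed limma's adjusted p of 0.05) and the 5 genes (diamonds, none passed). Red points lie below 0 in both panels, and in activated eggs most of the long transcripts lie below 0.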

How the data were processed

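The values deposited by the authors are read counts they had normalised, a non-negative signal with decimals, by a method the sources used here do not state. Tools named in the submitters' processing notes, with no role given, are STAR 2.4.2a, RSEM 1.2.25 and HTSeq, and the build is dm6. Per the labels' protocols, ERCC spike-in RNA was added and ribosomal RNA was removed, and the libraries were made with a TruSeq RNA v2 kit. The table has 0 ERCC rows. Of 5422 records 1 identical duplicate was removed. Records were matched to RefSeq names (5391) and transcript lengths (5399, from an Ensembl annotation of the same build). Values were analysed as log2(value + 1), which understates changes only slightly here, as no value is below 100.07. A limma 3.58.1 fit (R 4.3.3, intensity trend, no block) estimated 6 group means with 6 residual and 2.43 prior degrees of freedom. P-values were adjusted over all 5421 records by Benjamini and Hochberg, with a threshold of 0.05, in 9 contrasts. The scripts were tested on simulated data. Members, lists and the rule for named genes (called list members with the largest changes, up to 3 per list and comparison, or else the most abundant, and the 3 genes nearest to each member) were chosen with earlier results of these data known. The labels call the replicates biological, and with 2 in a group the error rests on pooling over groups. Alternatives were pseudocount 5, a mean of at least 300, 2 scalings, a fit of only the groups compared, replicate blocks, removal of the length trend and leaving out libraries.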

Additional observations from a re-analysis of the deposited data

How the results depend on the processing

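Of 365 values of the 5 genes under alternatives that keep every library, 332 kept their direction and side of the threshold, 29 turned and 4 passed newly, while of 370 with libraries left out 291 kept both, 77 turned and 2 passed newly. The turns are between values that did not pass. With libraries left out, 0 to 2 of the 5 genes passed in the maturation of wisp and 0 in every other comparison.

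The log2 fold changes with libraries left out had these lowest and highest values. For maturation in wisp they were -0.43 and 0.86 for Eip75B and -0.23 and 0.32 for ttk. For maturation in WT they were -0.30 and 1.72 for EcR, -0.15 and 1.37 for Hr39, -1.20 and 0.04 for Eip75B, -1.0 and 1.55 for ftz-f1 and -1.29 and 0.28 for ttk. For activation in wisp they were -0.81 and 0.39 for EcR, -0.30 and 0.53 for Hr39, -0.95 and 0.34 for Eip75B and -0.87 and 0.14 for ftz-f1. In WT, activation gave -0.44 and 0.83 for EcR, -0.23 and 0.72 for Hr39, -0.29 and 1.06 for ftz-f1 and -0.16 and 0.56 for ttk. For wisp against WT in immature oocytes EcR ran from -1.57 to 0.45, Hr39 from -0.96 to 0.56, Eip75B from -0.61 to 0.63, ftz-f1 from -1.79 to 0.75 and ttk from -1.14 to 0.44. In mature oocytes EcR ran from -0.08 to 0.23, Hr39 from -0.23 to 0.14 and ftz-f1 from -0.01 to 0.42. In activated eggs EcR ran from -0.97 to 0.30, Hr39 from -0.64 to 0.31, Eip75B from -1.09 to 0.08 and ftz-f1 from -1.22 to 0.13. The genotype difference in maturation ran from -0.38 to 1.64 for EcR, -0.61 to 0.91 for Hr39, -0.55 to 1.99 for ftz-f1 and -0.24 to 1.34 for ttk, and that in activation from -1.05 to 0.22 for EcR and -0.60 to 0.35 for Hr39.

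The replicates share only a number in the labels. Deviations of libraries with the same number correlated between wisp and WT (0.849 in immature oocytes, 0.483 in mature oocytes, 0.771 in activated eggs), but negatively between immature and other groups (-0.938 to -0.31). With a replicate block within each stage 1 of the 5 genes passed for wisp against WT in mature oocytes, Eip75B at 0.81 (limma, adjusted p = 0.00312), and 1 when the length trend was also removed, Eip75B at 0.72 (limma, adjusted p = 0.00075). In activated eggs 2 passed with that block, Eip75B at -0.50 (limma, adjusted p = 0.0309) and ftz-f1 at -0.55 (limma, adjusted p = 0.0266), and neither with length removed as well. All records passing with the block within each stage numbered 267 in immature oocytes, 1302 in mature oocytes, 2909 in activated eggs, 531 for the genotype difference in maturation and 1 for that in activation, and 298, 1843, 2502, 555 and 1 with length removed too. With 1 replicate block over all stages 2 passed for immature oocytes, 1 for activation in WT, 0 for activation in wisp and 1 for the difference in maturation. The block within each stage was used only for the genotype comparisons and genotype differences, and not for maturation or activation within a genotype.

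Over all records, quantile normalisation gave 273 for maturation in wisp, 2 for wisp against WT in immature oocytes, 50 in mature oocytes, 497 in activated eggs and 1 for the difference in maturation. Median-of-ratios scaling gave 14 in immature oocytes and 2 for that difference, length removal 25 and 30, and a mean of at least 300 gave 36 for the difference. A fit of only the groups compared gave 209 for maturation in wisp, 0 for activation in WT, 2 for activation in wisp, 0 in immature oocytes, 2274 in mature oocytes, 476 in activated eggs and 2 for the difference. With libraries left out the counts ran from 0 to 3 for maturation in WT, 0 to 1771 in wisp, 0 for activation in WT, 0 to 1 in wisp, 0 to 5 in immature oocytes, 1 to 195 in mature oocytes, 9 to 967 in activated eggs and 0 to 76 for the difference.

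Turned values with all libraries lay between -0.30 and 0.33, some of them as far from 0 as the main estimate. With the length trend removed they were -0.28 for Eip75B and -0.30 for ttk (maturation in wisp), -0.03 for EcR (activation in WT), 0.26 for EcR and 0.17 for Eip75B (activation in wisp), -0.01 for EcR (mature oocytes), 0.28 for EcR, 0.25 for Hr39, 0.11 for Eip75B and 0.02 for ttk (activated eggs), -0.09 for Hr39 (difference in maturation), and 0.29 for EcR and 0.33 for Hr39 (difference in activation), and the same in the genotype comparisons with the block added. Quantile normalisation gave -0.18 for ttk (maturation in wisp), and 0.05 (mature oocytes), 0.05 (activated eggs) and 0.00 (difference in activation) for Hr39. Median-of-ratios scaling gave -0.01 for Eip75B (immature oocytes), and 0.02 (mature oocytes), 0.04 (activated eggs) and 0.02 (difference in activation) for Hr39. The cause was not tested. Depth is unknown, and 2 libraries a group limit every value.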
